A study of Mus musculus with 62 samples.

Results

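The measurement described here is the mRNA content of 2 kinds of mouse muscle material that stand at opposite ends of muscle specialisation, the adult heart and the proliferating myoblast in culture. Its members are 7 RNA-seq libraries of the 62 samples in the series, chosen by their labels: 4 libraries from the hearts of separate wild-type mice and 3 from C2C12 cells that carried an empty vector. The study asked what RPL3L, a heart and skeletal muscle paralogue of the ribosomal protein RPL3, does in translation, and it also made libraries from Rpl3l-/- hearts and from C2C12 cells overexpressing RPL3 or RPL3L. The comparison of heart with myoblasts follows from the material used and was not itself the object of that question.

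The wild-type hearts came from Rpl3l+/+ male mice of the C57BL/6J background at 10 weeks of age, and each library was made from the lysate of a whole heart that had been flash frozen. C2C12 is an established mouse line of skeletal myoblasts, that is, of muscle precursor cells that divide in serum-rich medium and fuse into myotubes when serum is reduced. The control cells had been infected with a retrovirus made from the empty vector pCX4/puro and selected with puromycin, and they were harvested without a differentiation step. Poly(A)+ RNA was sequenced in both kinds of library. The study gives a female mouse as the origin of C2C12. Tissue and cell culture differ here in cell type, sex, proliferation, growth medium, harvest and preparation batch at once. These cannot be told apart. For that reason only large differences are described, defined as an adjusted p-value under 0.05 in the quasi-likelihood test of edgeR (Benjamini-Hochberg adjustment over all genes tested) together with a fold change of at least 4.

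Heart muscle and skeletal myoblasts share a mesodermal origin and part of their contractile genes, yet they are built by different regulators: cardiac muscle by GATA, HAND, TBX5 and MEF2 factors, skeletal muscle by MYOD1 and its relatives. An adult cardiomyocyte hardly divides, contracts without pause and burns mainly fatty acids in densely packed mitochondria. A myoblast in culture divides rapidly, spreads on a stiff surface with stress fibres, and holds most of its contractile genes off until it leaves the cell cycle. The heart is also a mixed tissue, with endothelium, fibroblasts, pericytes, blood and nerve beside its cardiomyocytes, whereas the culture is a single line. In such bulk samples a change in the share of cells of a type and a change in the RNA of each cell cannot be told apart.

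The count table held 23877 transcripts that were each listed on 2 identical lines, and 10485 named genes remained after 1 transcript was kept per gene. All transcripts matched to the annotation lie on the plus strand, so genes of the minus strand, among them Rpl3, Myh6, Myh7, Actc1 and Top2a, were not analysed here. Of the 10485 genes, 6375 had a mean count of at least 10 over the 7 libraries and were tested. Summed over 1 transcript per gene, the heart libraries held 1453996 to 5816266 counts and the cultures 6477490 to 13455731, so that 3 counts corresponded to 1.71 CPM (counts-per-million) in an average heart and to 0.296 CPM in an average culture. The hearts were thus both shallower and more variable: the median standard deviation (SD) of log2 CPM over the tested genes was 0.284 among hearts and 0.0836 among cultures. Pearson's r of log2 CPM across genes was 0.941 to 0.967 between hearts, 0.995 to 0.996 between cultures and 0.381 to 0.402 between a heart and a culture. The labels fitted these markers: Tnnt2, Myl2, Myl3, Mybpc3, Pln and Nppa were high in every heart, and Myod1 and Cdh15 were at 0 in every heart and present in every culture. Not every marker separated the groups so cleanly. Tnnt2 was also counted in every culture, at a lower level. Among the myoblast markers, Cdon was counted in every heart, at a lower level than in the cultures. Des went the other way and was higher in every heart than in any culture. The Rpl3l gene, which the study deletes in other mice, was expressed in all 4 of these hearts.

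Large differences in mRNA level numbered 2298 genes, 36.0% of those tested. Of these, 1342 were higher in the heart, which is 21.1% of the 6375 tested genes, and 956 were lower, which is 15.0%. In 2281 of the 2298 genes the hearts did not overlap with the cultures, beside 5205 of all 6375 tested genes. The first of these numbers follows largely from the limits of size and adjusted p-value. An adjusted p-value under 0.05 without regard to size was reached by 5270 genes, 2580 of them higher and 2690 lower in the heart. Toward larger folds the balance moved to the heart, with 988 genes higher and 514 lower at 8-fold or more, and 542 and 172 at 64-fold or more. At the far end, 176 of the genes higher in the heart had no count in any culture and 86 of those lower had no count in any heart. Depth limits the second number, because a level under about 1.71 CPM in the hearts cannot be told from 0. It also limits the numbers of genes lower at the larger folds, since the same floor in the cultures is 0.296 CPM. The part of depth in that balance was not tested. The shares of 21.1% and 15.0% are the background for the counts in gene lists below. Where members of a list passed the count filter mainly through the group where they are high, nothing is read from its count against that background.

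The transcripts of the heart were concentrated on few genes. The 10 most counted genes took 17.1% to 19.5% of the counts of a heart and 8.90% to 8.99% of those of a culture, and the 100 most counted took 43.7% to 47.1% and 31.0% to 31.6%. The 1342 genes that were higher in the heart made up 52.9% to 54.6% of the heart counts and 4.51% to 4.54% of the culture counts. The 956 genes that were lower in the heart made up 1.94% to 2.13% of the heart counts and 24.3% to 24.4% of the culture counts. Scaling therefore mattered for the split: trimmed-mean (TMM) scaling placed the median log2 fold change of all tested genes at -0.06, whereas with library totals it was -0.645, a shift of -0.585, and the large differences then numbered 1109 higher (43.8%) and 1424 lower in place of 1342 (58.4%) and 956. Fold changes below are relative to the TMM centre.

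**Figure D1:**
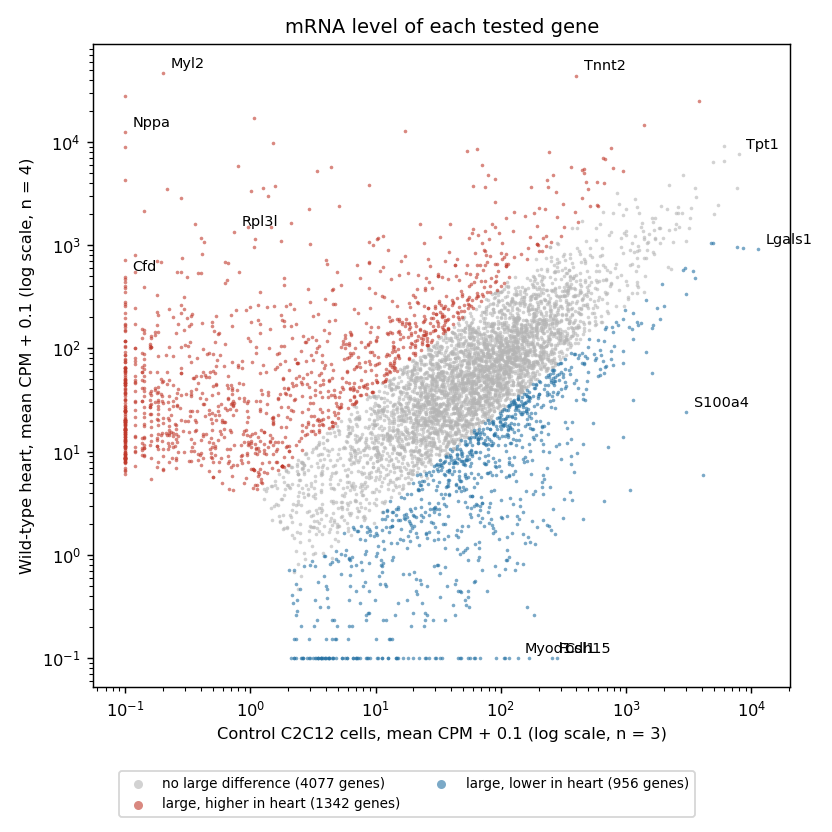
Mean level of each of the 6375 tested genes in 3 control C2C12 cultures (horizontal axis) and 4 wild-type hearts (vertical axis), both as CPM plus 0.1 on log scales; 1342 genes (red) were at least 4-fold higher in the heart and 956 (blue) at least 4-fold lower. Genes without a count in a group lie at 0.1, as Nppa does in C2C12 cells and Cdh15, Myod1 and Fosl1 do in the heart, and Tpt1 lies on the diagonal.

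Rpl3l, the striated muscle paralogue of Rpl3 (chr17:24727820-24736143, plus strand, GRCm38), stood at 1219, 1589, 1107 and 1512 CPM in the 4 hearts and at 1.01, 0.616 and 0.306 CPM in the 3 cultures. Every heart lay more than 1000 CPM above every culture. Its log2 fold change was 11.15 ± 0.27 (SE) (edgeR quasi-likelihood test, Benjamini-Hochberg adjusted p = 3.76e-13).

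The 10 largest increases by fitted fold change, among genes with at least 100 CPM in the heart, were Myl3, Nppa, Mybpc3, Myl2, Pln, Dsp, Tuba8, Tcap, Cfd and Lrtm1. Over cultures with no or few counts the fitted value is no measured size, so their order is not established: Cfd is bounded only at 1675-fold, whereas Fabp3, outside the 10, was 15517-fold higher. The 10 include 4 parts of the contractile apparatus, a secreted hormone, a regulator of the calcium pump, a desmosome protein and an adipokine. Myl3, the essential myosin light chain of ventricle and slow muscle, was measured at 31614, 30171, 23226 and 27731 CPM in the hearts and had no count in any culture. Myl2, the ventricular regulatory light chain (chr5:122100951-122106854, plus strand), reached 48954, 52359, 38269 and 45948 CPM in the hearts, while 2 cultures had none and the third 0.306 CPM. Its ratio of CPM was 305562, with a 95% counting interval of 130935 to 941072.

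Nppa, which encodes atrial natriuretic peptide, was at 13782, 13828, 10818 and 11573 CPM in the hearts and absent from the counts of all 3 cultures. Against a floor of 3 counts per culture this is at least 42161-fold, and for Myl3 at least 95065-fold and for Mybpc3, the cardiac myosin-binding protein C, at least 30397-fold. Pln encodes phospholamban, the brake on the calcium pump of the sarcoplasmic reticulum, and was at 4347, 4034, 4534 and 4226 CPM in the hearts with no count in the cultures. The 4 hearts lay close together for Pln and less so for Tcap, the titin cap at the Z-disc, which ran from 2574 to 4771 CPM. Cfd, the fat-derived protease adipsin, varied most of the 10, with 348, 661, 148 and 830.1 CPM. For Cfd the standard error of the log2 fold change was 1.10, against 0.25 for Pln.

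The 10 largest decreases by fitted fold change, chosen by the same rule, were Cdh15, Fosl1, Syt13, Myod1, Brinp3, Depdc1a, Chrnd, Nek2, Spp1 and Pbk. Where the hearts had no or few counts the fitted value is no measured size, so the order among these genes, and against others such as Nefl at 292-fold lower, is not established. Cdh15 encodes M-cadherin, the adhesion molecule of satellite cells and myoblasts (chr8:122847966-122867397, plus strand), and stood at 281, 279 and 286 CPM in the cultures without a count in any heart, a difference of at least 165-fold. Myod1, the master regulator of the skeletal muscle lineage, stood at 149, 121 and 138 CPM in the cultures and also had no count in any heart, at least 79.6-fold. Fosl1, a serum-responsive AP-1 subunit, stood at 253, 248 and 262 CPM against no count, at least 149-fold. Spp1, the secreted phosphoprotein osteopontin, was at 4143, 3871 and 4245 CPM in the cultures and 5.92, 2.09, 10.1 and 5.06 CPM in the hearts. Its log2 fold change was -9.46 ± 0.21 (SE) (edgeR quasi-likelihood test, adjusted p = 2e-13).

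**Figure D2:**
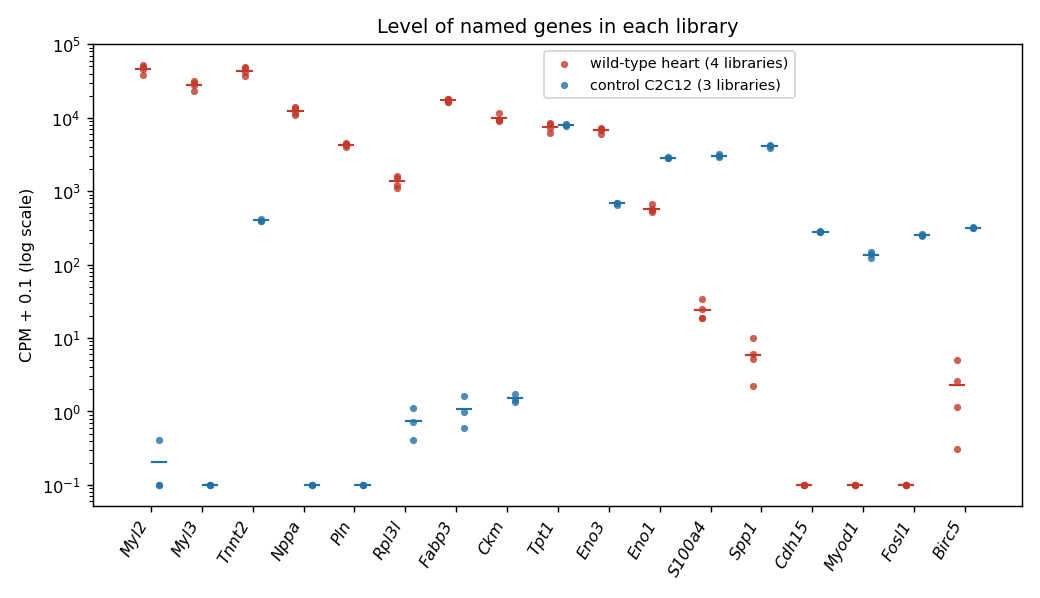
CPM plus 0.1 (log scale) of selected genes in each of the 4 wild-type heart libraries (red points) and 3 control C2C12 libraries (blue points), with short lines for the group means. Genes of heart muscle stand at the left and genes of myoblasts and of cell division at the right, Tpt1 overlaps between the groups, and Eno3 and Eno1 cross over.

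Genes of the sarcomere, Z-disc and intercalated disc were higher in the heart almost without exception. Of 39 members tested (84 listed, 40 in the table), 34 were large increases, none was a large decrease, and 5 differed by less than the limit. Of the 39, 6 had no count in any culture and passed the count filter through the hearts alone, so nothing is read from the count against the 21.1% of all tested genes. Their median log2 fold change was 8.37, or 7.47 with genes at 0 in the cultures set to their bound, beside -0.06 for all tested genes. Summed, they took 13.8% to 15.8% of the heart counts and 0.217% to 0.220% of the culture counts. These were not equally silent in myoblasts: Tnnt2, cardiac troponin T, was at 395, 395 and 416 CPM in the cultures and at 48264, 49379, 36776 and 41540.4 CPM in the hearts, a difference of 109.5-fold. Tnnc1, troponin C of slow and cardiac muscle, was at 17.2, 18.8 and 15.7 CPM in the cultures and 12840.5 ± 2379.9 (SD, n = 4) in the hearts. Dsp, the desmoplakin that ties intermediate filaments to desmosomes, had 1 count in the 3 cultures together, which gives a ratio of 74221 with a 95% counting interval of 13319.7 to 2931720.0. Members without a large difference were Ank3, Flnc, Pdlim3, Sync and Vcl, the last, vinculin of focal adhesions, with a log2 fold change of -1.57.

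To show what the promoters of such genes hold, the bases before the RefSeq transcription start were read for the 4 largest increases of this list whose RefSeq start lay within 50 bases of the GENCODE transcript start (Myl3, Mybpc3, Dsp and Mybphl; RefSeq, GRCm38.p6, plus strand, 180 bases each). The capitals mark a CArG box, which serum response factor binds, a MEF2 box or an M-CAT element, which TEAD factors bind and which was searched by its letters CATTCC. They also mark a site of the GATA factors, searched as AGATAA. An E-box was searched as CAGCTG, and the TATA box by the letters TATAAA. Every search covered both strands.
Myl3, chr9:110763498-110763677: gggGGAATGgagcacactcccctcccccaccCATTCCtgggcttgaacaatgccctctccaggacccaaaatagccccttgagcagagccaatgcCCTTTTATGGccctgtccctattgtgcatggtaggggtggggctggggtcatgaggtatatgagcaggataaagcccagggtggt
Mybpc3, chr2:91117964-91118143: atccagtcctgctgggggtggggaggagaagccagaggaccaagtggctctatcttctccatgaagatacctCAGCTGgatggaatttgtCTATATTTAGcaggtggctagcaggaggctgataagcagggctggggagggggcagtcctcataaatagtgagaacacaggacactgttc
Mybphl, chr3:108364731-108364910: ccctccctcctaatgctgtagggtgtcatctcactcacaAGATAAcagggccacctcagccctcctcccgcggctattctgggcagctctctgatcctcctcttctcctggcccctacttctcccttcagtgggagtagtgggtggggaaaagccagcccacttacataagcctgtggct
The window of Myl3 held a CArG box and 2 M-CAT elements, that of Mybpc3 a MEF2 box and an E-box, that of Mybphl a GATA site, and that of Dsp none of these 6 motifs. A promoter of 300 bases, 250 before and 50 after the start, could be matched for 22 tested members of the list and for 3612 of the 6375 tested genes. Among the 22, 18.2% held a MEF2 box and 18.2% a CArG box, against 0.557% and 1.63% of all 32851 promoters of the build, and 31.8% held an M-CAT element against 14.7%. An E-box was held by 27.3% against 16.3%, a TATA box by 22.7% against 13.6%, and a GATA site by 9.09% against 11.2%. Among the 3612 matched promoters of tested genes, 0.554% held a MEF2 box, 1.38% a CArG box and 11.8% an M-CAT element. In that set 15.6% held an E-box, 7.31% a TATA box and 5.59% a GATA site. For the GATA site, held by 2 of the 22, the direction thus depends on the background. Among the 730 matched promoters of all genes that were higher in the heart the shares were 1.23% for the MEF2 box, 1.64% for the CArG box and 12.1% for the M-CAT element. A match is a description of the letters and not a bound site. A MEF2 box can contain a TATA box, so these searches overlap.

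Calcium cycling, ion channels and receptors of the heart followed in size. Of 39 members tested (80 listed, 42 in the table), 27 were large increases and 2 large decreases, with a median log2 fold change of 6.37 (5.73 at the bounds). Of the 42 in the table, 10 had no count in any culture. Members such as Sln and Kcnk3 passed the count filter through the hearts alone. Nothing is therefore read from these counts against the 21.1% and 15.0% of all tested genes. Sln, sarcolipin, a second small regulator of the calcium pump that is typical of atria, was at 329.8, 419.8, 289.6 and 356 CPM in the hearts without a count in the cultures. Hrc, the histidine-rich calcium-binding protein of the sarcoplasmic reticulum, was at 5909 ± 793 CPM (SD, n = 4) in the hearts and 0.695 ± 0.0382 CPM (SD, n = 3) in the cultures. Kcnk3, a background potassium channel, was at 255, 192, 304 and 269 CPM against no count. The groups did not overlap for any of these. The 2 large decreases were Itpr3, an inositol trisphosphate receptor of non-muscle cells, at 17.8, 20.2, 12.7 and 15.6 CPM in the hearts and 186, 172 and 178 CPM in the cultures, and Popdc3, a Popeye domain protein of striated muscle, at 87.9, 81.6, 63.0 and 84.3 and 317, 324 and 343 CPM. Popdc3 lay just past the limit, at 4.14-fold lower, and fell short of it without heart 3 (log2 fold change -1.97).

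Fuel use separated the groups as clearly. Of 36 tested genes of fatty acid uptake and oxidation (69 listed), 30 were large increases in the heart and none a large decrease, and they took 4.49% to 5.03% of the heart counts against 0.203% to 0.204% of the culture counts. Rxrg and Ucp3 passed the count filter through the hearts alone. Nothing is therefore read from the count against the 21.1% of all tested genes. Fabp3, the fatty acid-binding protein of heart muscle, was at 17961, 17997, 16435 and 16491 CPM in the hearts and 0.897, 0.493 and 1.53 CPM in the cultures. Lpl, the lipase that releases fatty acids from circulating lipoproteins, was at 6153, 4463, 7334 and 5107 CPM in the hearts and 3.37, 5.17 and 4.34 CPM in the cultures, and Gpihbp1, its anchor on capillary endothelium, was at 242 ± 28.8 CPM (SD, n = 4) with 3 counts in all cultures together. All hearts lay above all cultures for each of these. Rxrg and Ucp3, a nuclear receptor and a mitochondrial carrier, had no count in the cultures and were at least 915-fold and 399-fold higher in the heart. The 6 without a large difference were Slc27a1, Cpt1a, Acad9, Mecr, Pparg and Ppard, among them Cpt1a, the liver-type gate of fatty acid import into mitochondria, at a log2 fold change of 0.73.

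Mitochondrial energy genes were higher by a smaller and more even factor. Of 28 tested respiratory chain and ATP synthase genes (87 listed), 26 were large increases and none a large decrease, with a median log2 fold change of 3.45, and of 17 tested citrate cycle genes (43 listed), 14 were, with a median of 3.33. Cox4i2 passed the count filter through the hearts alone, and nothing is read from these counts against the 21.1% of all tested genes. Respiratory chain genes took 8.52% to 9.47% of the heart counts and 1.67% to 1.70% of the culture counts. Atp5b, the catalytic subunit of ATP synthase, was at 26300.4, 25498, 22856 and 25701 CPM in the hearts and 3689, 3883 and 3879 CPM in the cultures, a difference of 6.57-fold. Well beyond the median lay the tissue-specific subunits of cytochrome c oxidase: Cox7a1, the form of heart and muscle, was at 4793, 5663, 4554 and 6071 CPM in the hearts and 3.25, 2.96 and 3.79 CPM in the cultures, and Cox4i2 at 39.4 ± 6.52 CPM (SD, n = 4) with 2 counts in all cultures. The common form Cox4i1 differed by 11.6-fold. In the citrate cycle, Ogdhl, a paralogue of the oxoglutarate dehydrogenase subunit, led with 472, 425, 415 and 415 CPM against 0.673, 0.616 and 0.306 CPM. Vdac2 and Slc25a5, a pore and an adenine nucleotide carrier that most cells use, showed no large difference, at log2 fold changes of 1.36 and -0.34.

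Glycolysis did not move as a block. Of 21 tested genes (41 listed), 9 were large increases and 5 large decreases, beside 21.1% and 15.0% of all tested genes. The median log2 fold change was 0.74. Higher in the heart were Pygm, the muscle glycogen phosphorylase (3777 ± 125 CPM in hearts, SD, n = 4, and 1.46 ± 0.108 CPM in cultures, SD, n = 3), Pfkm, the muscle phosphofructokinase (62.5-fold), and Eno3, the muscle enolase, together with Pygb, Pgm1, Bsg, Pfkfb1, Gys1 and Pdk1. Lower in the heart were Eno1, Pgam1, Slc2a1, Pfkfb4 and Pgm2. Eno3 stood at 6796, 6982, 6019.6 and 7312 CPM in the hearts and 656, 693 and 698 CPM in the cultures. Eno1 stood at 571, 562, 514 and 661 CPM in the hearts and 2831, 2804 and 2888 CPM in the cultures. The enolase forms crossed, from a log2 ratio of Eno3 to Eno1 of 3.56 ± 0.07 (SD, n = 4) in hearts to -2.06 ± 0.05 (SD, n = 3) in cultures. Eno1 shares sequence with the retrocopy Eno1b, which was also lower in the heart, and reads of these can be split between them. The glucose transporter gene Slc2a1, the basal form, was 5.54-fold lower at 33.8, 34.2, 39.7 and 35.8 against 197, 199 and 204 CPM (edgeR quasi-likelihood test, adjusted p = 1.15e-10). The glycolysis count depended on scaling: with library totals 5 genes were large increases and 6 large decreases.

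**Figure D3:**
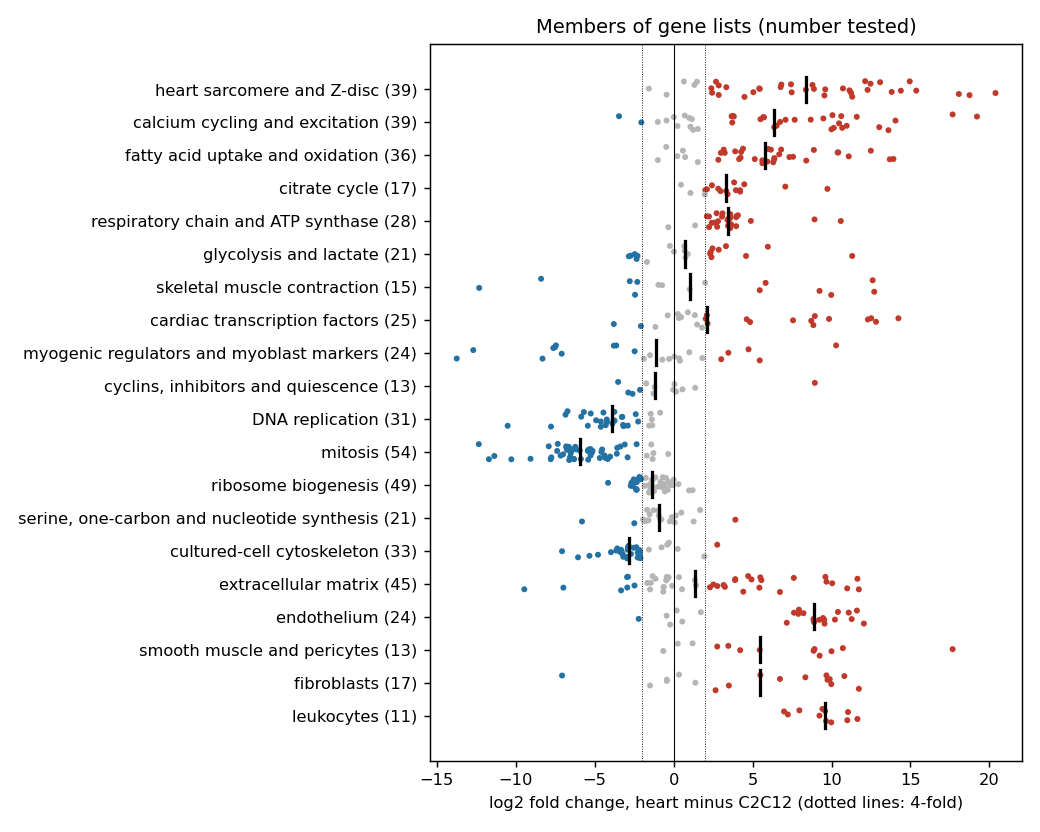
Log2 fold change of heart over C2C12 for each tested member (point) of 20 gene lists, with the median as a black line and the number tested in brackets; red and blue points are large differences, grey points are not, and dotted lines mark 4-fold. Sarcomere and fatty acid genes lie to the right with medians of 8.37 and 5.78, mitosis and DNA replication genes to the left with medians of -5.92 and -3.88, and glycolysis genes on both sides.

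Cell division genes were the counterpart. Of 54 tested mitosis genes (103 listed), 49 were large decreases in the heart and none a large increase, with a median log2 fold change of -5.92 (-5.43 at the bounds). Of the 54, 3 had no count in any heart and passed the count filter through the cultures alone, so nothing is read from the count against the 15.0% of all tested genes. Of 31 tested DNA replication genes (72 listed), 26 were large decreases and none a large increase, with a median of -3.88. Orc1 had no count in any heart, so nothing is read from this count against the 15.0% either. Mitosis genes took 0.0509% to 0.0611% of the heart counts and 1.31% to 1.32% of the culture counts. Depdc1a, a mitotic regulator, was at 102, 112 and 107 CPM in the cultures and had no count in any heart, as did Knl1 and Kif14, a kinetochore scaffold and a kinesin of cytokinesis. Foxm1, the transcription factor of the late cell cycle, was at 2.54, 2.09, 2.65 and 1.26 CPM in the hearts and 466, 428 and 466 CPM in the cultures. Birc5, survivin, a chromosomal passenger protein, was at 2.54, 4.88, 1.06 and 0.211 CPM in the hearts and 311, 321 and 314 CPM in the cultures. Every heart was far below every culture for both, with log2 fold changes of -7.92 ± 0.18 (SE) and -7.75 ± 0.31 (SE).

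Among the replication genes, Orc1, the largest subunit of the origin recognition complex, had no count in any heart and 31.0, 30.3 and 29.0 CPM in the cultures, at least 17.6-fold. Rrm2, the small subunit of ribonucleotide reductase, was at 9.30, 4.18, 14.8 and 15.8 CPM in the hearts and 707, 727 and 734 CPM in the cultures, and Mcm5, part of the replicative helicase, at 17.8, 6.97, 8.47 and 13.5 and 294, 279.9 and 298 CPM. The hearts did not reach the cultures for any of these. Mitosis members without a large difference were Ncapd3, Ckap5, Bub3, Cenpa and Sgo2a. Cenpa, the histone variant of centromeres, was at 71.0, 124, 92.7 and 90.4 CPM in the hearts and 242, 266 and 251 CPM in the cultures, 2.68-fold lower.

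The promoters of the 4 largest decreases of the mitosis list with a matched start (Depdc1a, Nek2, Gtse1 and Birc5) were read in the same way. The capitals mark a CCAAT box with the letters CCAAT, a CHR element with the letters TTTGAA (the cell cycle genes homology region, bound by the MuvB complex) or an E2F site with the letters TTTCCCGC or TTTGGCGC, on either strand.
Depdc1a, chr3:159495253-159495432: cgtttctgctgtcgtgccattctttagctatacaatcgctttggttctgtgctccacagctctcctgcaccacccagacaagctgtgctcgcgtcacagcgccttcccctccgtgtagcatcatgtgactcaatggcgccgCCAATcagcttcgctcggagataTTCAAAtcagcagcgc
Nek2, chr1:191821293-191821472: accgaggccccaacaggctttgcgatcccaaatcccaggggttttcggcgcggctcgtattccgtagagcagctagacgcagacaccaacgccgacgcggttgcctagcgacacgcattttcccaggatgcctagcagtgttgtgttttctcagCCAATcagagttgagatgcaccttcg
Depdc1a held a CCAAT box and, on the other strand, a CHR element closer to the start, Nek2 held a CCAAT box, and the 180 bases of Gtse1 and Birc5 held none of these letters. Of the 34 mitosis genes with a matched promoter of 300 bases, 67.6% held a CCAAT box, 50.0% a CHR element and 17.6% an E2F site, against 37.4%, 17.9% and 1.56% of all promoters of the build. Among the 501 matched promoters of all genes that were lower in the heart the shares were 42.9%, 12.4% and 4.79%. Among the 3612 matched promoters of tested genes they were 39.5%, 11.1% and 2.99%. CpG content also differed: the median ratio of observed to expected CpG was 0.567 (quartiles 0.321 and 0.781) in promoters of the 730 genes higher in the heart, 0.755 (0.518 and 0.902) in those of the 501 genes lower, and 0.808 (0.670 and 0.930) in those of the 2381 tested genes without a large difference.

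Not every gene that governs division was lower. Of 13 tested cyclins, inhibitors and quiescence genes (28 listed), 4 were large decreases and 1 a large increase. Over all tested genes these shares were 15.0% and 21.1%. Cdk4 and Cdk6, the kinases that carry cells through G1, were at 172, 170.2, 151 and 178 and 1.69, 4.18, 3.71 and 1.69 CPM in the hearts and at 1231, 1191 and 1276 and 31.6, 28.7 and 28.5 CPM in the cultures, and Trp53 and Btg1 were 6.11-fold and 4.38-fold lower. Their partner cyclin gene Ccnd3 was at 141 ± 21.8 CPM (SD, n = 4) in hearts and 145 ± 8.24 CPM (SD, n = 3) in cultures, and the inhibitor Cdkn1b at 45.4 ± 11.2 CPM (SD, n = 4) and 43.1 ± 2.24 CPM (SD, n = 3). For these the groups overlapped, and the adjusted p-values of the edgeR quasi-likelihood test were 0.817 and 0.801. The large increase was Klf15, a glucocorticoid-induced regulator of cardiac metabolism, at 95.6, 55.8, 103 and 80.3 CPM in the hearts with 5 counts in all cultures.

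Ribosome biogenesis and nucleotide synthesis genes mostly stayed below the limit. Of 49 tested ribosome biogenesis genes (94 listed), 14 were large decreases and none was a large increase, beside 15.0% and 21.1% of all tested genes. The other 35 stayed below the limit, and the median log2 fold change was -1.39. The number of large decreases ranged from 1 with an 8-fold limit to 22 with library totals. Myc, a driver of ribosome production and growth, was at 0.846, 9.07, 5.29 and 7.17 CPM in the hearts and 110.2, 109 and 112 CPM in the cultures. Nop56, Nop58 and Nhp2, core proteins of small nucleolar ribonucleoproteins, were 6.59-fold, 6.38-fold and 6.27-fold lower in the heart. Of 21 tested genes of serine, one-carbon and nucleotide synthesis (54 listed), 2 were large decreases and 1 a large increase, shares below the 15.0% and 21.1% of all tested genes, and with library totals 8 were large decreases. The decreases were Mthfd1l, a mitochondrial folate enzyme, at 0, 4.88, 1.59 and 2.53 CPM against 133, 129 and 140.1 CPM, and Srm, spermidine synthase, 5.64-fold lower. Aldh1l1, a cytosolic folate enzyme, was 15.0-fold higher.

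Of 25 tested cardiac transcription factors and related regulators (50 listed), 14 were large increases and 2 large decreases. Several had no count in any culture and passed the count filter through the hearts alone. Nothing is therefore read from these counts against the 21.1% and 15.0% of all tested genes. Lrrc10, a cardiac-restricted protein of the Z-disc that the list holds beside the factors, and the factors Hand2, Irx4, Tbx5 and Thrb had no count in any culture. Hand2 was at 118, 147, 146 and 175 CPM in the hearts, Tbx5 at 91.3, 80.9, 137 and 102 CPM and Irx4, a ventricular factor, at 107, 119.9, 107 and 140.2 CPM. These are at least 494-fold, 347-fold and 399.8-fold above the floor of the cultures. Gata6, with 102 ± 17.1 CPM (SD, n = 4) in the hearts, had 3 counts in all cultures, and Casz1 and Esrrg had 4 each. Tbx2, Dbp, Klf15, Nfatc4, Per1 and Zfpm2 made up the rest, the last 3 near the limit at 4.43-fold, 4.29-fold and 4.08-fold. With library totals these 3 fell below 4-fold, as did Per1 without heart 1 (log2 fold change 1.94), Nfatc4 without heart 2 (1.95) or culture 1 (1.95) and Zfpm2 without heart 4 (1.95) or culture 2 (1.88). The large decreases included Foxk1, a forkhead factor, at 5.92, 0.697, 19.1 and 3.79 CPM in the hearts and 33.3, 26.4 and 30.5 CPM in the cultures. Foxk1 lay close to the limit with widely spread hearts, and it passed below 4-fold without heart 2 (log2 fold change -1.84), heart 4 (-1.66) or culture 1 (-1.97).

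Of 24 tested myogenic regulators and myoblast markers (64 listed), 10 were large decreases in the heart and 5 were large increases. Members without a count in any heart, such as Cdh15 and Myod1, passed the count filter through the cultures alone, and Meox2 through the hearts alone. Nothing is therefore read from these counts against the 15.0% and 21.1% of all tested genes. Beside Cdh15 and Myod1 the decreases included Myog, Chrng, Musk, Met, Megf10, Cdon and Vgll3. Met, the receptor of hepatocyte growth factor, was at 0.846, 2.09, 1.59 and 1.48 CPM in the hearts and 272, 273 and 268 CPM in the cultures. Musk, the receptor kinase of the neuromuscular synapse, had 2 counts in all hearts and was at 47.5, 46.2 and 47.9 CPM in the cultures. Myog, which marks the onset of differentiation, was low in the cultures too, at 3.70, 3.20 and 4.22 CPM. The increases were Meox2, Igdcc4, Heyl, Des and Six5. Des, the muscle intermediate filament desmin, is made in both, at 4997, 4967, 4841 and 5356 CPM in the hearts and 453, 447 and 471 CPM in the cultures, and its log2 fold change was 3.46. Meox2, a homeobox gene that endothelium also uses, was at 33.8, 24.4, 23.8 and 22.6 CPM in the hearts without a count in the cultures.

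Genes of skeletal muscle contraction went both ways, with 6 large increases and 5 large decreases among 15 tested (42 listed, 21 in the table). Chrnd and Myh3 passed the count filter through the cultures alone. Nothing is therefore read from these counts against the 21.1% and 15.0% of all tested genes. Ckm, the muscle creatine kinase that heart and skeletal muscle share, was at 9383, 9449, 9131 and 11521 CPM in the hearts and 1.23, 1.35 and 1.65 CPM in the cultures. Dhrs7c, Ky, Myh4, Cacna1s and Lmod1 were also higher in the heart. Lower in the heart were Chrnd, the delta subunit of the muscle acetylcholine receptor, at 109, 96.4 and 109.7 CPM in the cultures with no count in any heart, Myh3, the embryonic myosin heavy chain, at 7.29, 7.51 and 6.05 CPM with no count in any heart, and Tpm3, Mylk2 and Stac3. Myosin heavy chain genes are closely related, so their counts may be shared.

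Most listed genes of the cytoskeleton and surface of the cultured cell were lower in the heart. Of 33 tested genes of the list of cultured-cell cytoskeleton (68 listed), 26 were large decreases in the heart and 1, Cnn1, a large increase. Among all tested genes the shares were 15.0% and 21.1%. The list is named for the culture and was chosen with earlier results of these data known. Nothing is therefore read from its count against these shares. The median log2 fold change of the list was -2.86, and its members were counted in both groups. The members took 0.588% to 0.623% of the heart counts and 7.11% to 7.20% of the culture counts. S100a4, a calcium-binding protein of motile cells, was at 33.8, 25.1, 18.5 and 18.8 CPM in the hearts and 2941, 2985 and 3176 CPM in the cultures. Timp1 and Thbs1, a secreted inhibitor of metalloproteinases and a matricellular protein, were 66.7-fold and 40.4-fold lower in the heart. Vim, the intermediate filament vimentin, was at 856, 1122, 957 and 947 CPM in the hearts and 7663, 7665 and 7911 CPM in the cultures, so that it was abundant in both and 7.98-fold lower in the heart. Cnn1, calponin of smooth muscle, was at 24.5, 96.9, 25.9 and 36.0 CPM in the hearts and 3.81, 8.74 and 7.28 CPM in the cultures. Heart 2 stood above the other hearts, and in hearts 1 and 3 alone the log2 fold change was 1.90, below the limit.

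Of 45 tested extracellular matrix genes (83 listed), 21 were large increases in the heart and 7 were large decreases. Some members, such as Dpt with 1 count in all cultures, passed the count filter through the hearts alone. Nothing is therefore read from these counts against the 21.1% and 15.0% of all tested genes. Dpt, Mfap4, Lum and Cilp, small matrix proteins of resting fibroblasts, were at 172 ± 16.5, 63.8 ± 19.2, 141 ± 16.2 and 38.7 ± 13.9 CPM (SD, n = 4) in the hearts with at most 5 counts in all cultures. The fibrillar collagens that were tested stayed below the limit: Col1a1 was at 436, 535, 398 and 423 CPM in the hearts and 617, 616 and 581 CPM in the cultures, and Col3a1 at 860.0, 1018, 736 and 809 and 1152, 1163 and 1151 CPM. The hearts lay below the cultures for both, by 1.35-fold and 1.35-fold. The large decreases were Spp1, P4ha3, Nid1, Mmp14, Loxl3, Col7a1 and Efemp2. Nid1, nidogen of basement membranes, was at 98.1, 63.5, 132 and 83.5 CPM in the hearts and 992, 925 and 935 CPM in the cultures. Mmp14, a membrane-bound collagenase, was 7.75-fold lower in the heart.

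Markers of other cells of the heart were high in the tissue and mostly near 0 in the culture. For endothelium 18 of 24 tested genes were large increases and 1, Selp, a large decrease; for leukocytes 11 of 11 were large increases, for smooth muscle and pericytes 10 of 13, for fibroblasts 11 of 17 with S100a4 as a decrease, and for mesothelium 4 of 4. A gene of such a list passed the count filter mainly through the group where it is high, so nothing is read from these counts against the background. The smooth muscle and pericyte list includes Pln and Des, muscle genes described above, at 4285 ± 210 and 5040 ± 221 CPM (SD, n = 4) in the hearts. Its sum of 9731 to 10306 CPM in the hearts is mostly theirs and does not measure smooth muscle content. Robo4 and Cldn5, of vascular endothelium, and Tyrobp, of myeloid cells, had no count in any culture and were at 86.0 ± 11.9, 65.0 ± 17.2 and 64.8 ± 7.05 CPM (SD, n = 4) in the hearts. Summed over each list, endothelial markers were at 3250 to 3406 CPM in the hearts and 598 to 624 CPM in the cultures, and leukocyte markers at 1472 to 1631 CPM in the hearts and 1.90 to 2.83 CPM in the cultures. Those 2 sums hardly varied between hearts. Fibroblast markers summed to 5789 to 6930 CPM in hearts and 6504 to 6684 CPM in cultures, and Col1a1, Col1a2, Col3a1 and S100a4 were counted in both. Schwann cell and neuron markers summed to 329.8 to 457 CPM in the hearts and 1716 to 1779 CPM in the cultures, where Nefl, a neurofilament gene, was at 1039, 1089 and 1081 CPM against 0.846, 9.76, 3.71 and 2.32 CPM in the hearts.

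Blood, fat and airway markers varied between hearts. Red cell markers summed to 12597 to 20570 CPM in the hearts. Hba-a1 and Hba-a2, the near-identical alpha globin genes whose reads can be split between them, were also counted in the cultures, at 62.4, 63.2 and 67.9 and 51.0, 53.8 and 56.6 CPM. Alas2, the heme synthesis enzyme of red cells, at 161 ± 34.5 CPM (SD, n = 4) in the hearts, had no count in any culture, and Myl2, with 46382 CPM in the hearts, had 5 counts in all cultures. Fat cell markers summed to 1077, 1609, 565 and 2239 CPM in hearts 1 to 4 and to 8.62 to 12.1 CPM in the cultures. Airway markers summed to 75.3, 1721, 66.7 and 473 CPM in hearts 1 to 4 and to 1.04 to 1.57 CPM in the cultures. Hearts 2 and 4 thus held more of both than hearts 1 and 3. Bpifa1, a secreted protein of the upper airway, was at 0.846, 884, 4.76 and 244 CPM in the 4 hearts and had no count in the cultures, and Ucp1, of brown fat, was at 32.1, 46.0, 16.4 and 178 CPM. In hearts 1 and 3 alone the large differences numbered 2267, with 1308 higher and 959 lower, and the sarcomere and mitosis counts were 34 and 49, as with all 4 hearts. The airway list then held 6 large increases in place of 8, and the fat list 9 in place of 10.

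**Figure D4:**
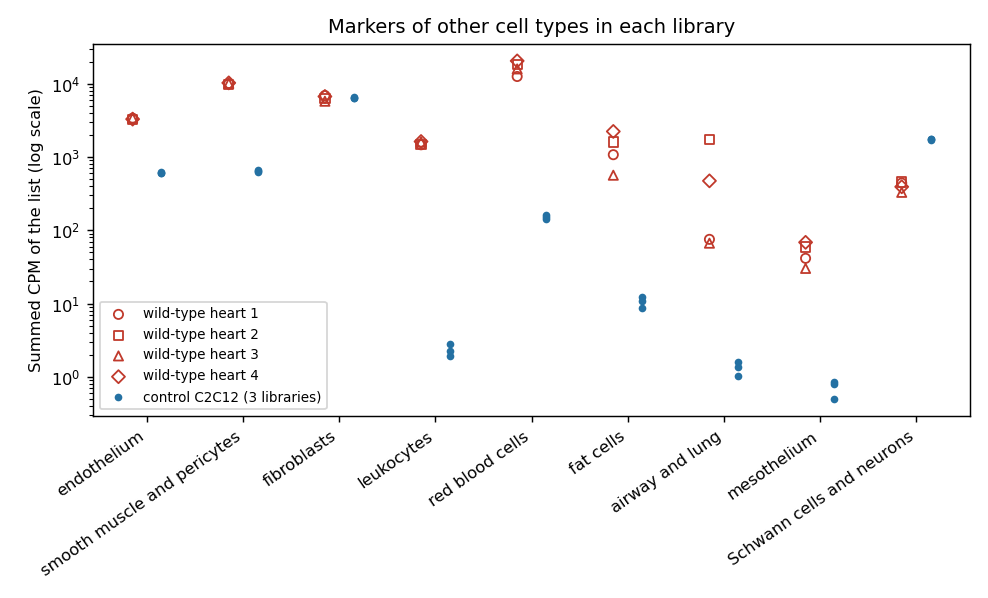
Summed CPM (log scale) of marker lists for other cell types in each wild-type heart (open red symbols, 1 shape per heart) and each control C2C12 culture (blue points). Endothelial and leukocyte sums lie close together among the hearts. Smooth muscle sums do too, but Pln and Des, which heart muscle also expresses, make up most of them. Airway sums run from 66.7 to 1721 CPM and fat sums from 565 to 2239 CPM.

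Related genes could be compared within a library in 9 pairs of which both were tested. In all 9 the log2 ratios of hearts and cultures did not overlap, beside 5205 of 6375 tested genes taken singly. Nothing is read from this count. The ratio of Fabp3 to Fabp5, the form of skin and fat, moved from -7.94 ± 0.50 (SD, n = 3) in cultures to 6.60 ± 0.18 (SD, n = 4) in hearts. The ratio of Pygm to Pygb, the brain glycogen phosphorylase, moved from -4.95 ± 0.03 to 1.40 ± 0.14, although Pygb itself was higher in the heart, with a log2 fold change of 4.58. Hspb6 to Hspb1, small heat shock proteins, moved from -5.32 ± 0.07 to -0.24 ± 0.21. Tnnt2 to Tnnt3, cardiac and fast skeletal troponin T, moved from 5.10 ± 0.03 to 9.95 ± 0.40. The smallest shift was that of the outer membrane pores Vdac1 to Vdac2, from -0.56 ± 0.03 to 0.50 ± 0.13. The ratio of Ogdh to Ogdhl was lower in the hearts, by a change of -4.53 to 3.47 ± 0.18. Ogdh and Ogdhl were both higher in the heart, with log2 fold changes of 4.21 and 9.74. The ratio of Mbnl1 to Mbnl2, splicing regulators, was lower in the hearts too, from 1.00 ± 0.05 to -0.39 ± 0.28. These ratios compare counts that were not corrected for transcript length.

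Per kilobase of transcript, the most abundant mRNAs of the heart were Myl2, Tnnt2, Myl3, Fabp3, Tnnc1, Hba-a2, Nppa, Atp5b, Hba-a1 and Cox4i1, from 70064 ± 9078 CPM per kb (SD, n = 4) for Myl2 to 11733 ± 1929 for Cox4i1. In the cultures they were Lgals1, Tpt1, Fth1, S100a4, Rpl8, Rplp0, Rps15, Ftl1-ps1, Tuba1c and Rpl19, from 14185 ± 385 CPM per kb (SD, n = 3) for Lgals1, a secreted galectin, to 4298 ± 102 for Rpl19. The lists shared no gene. Ferritin and ribosomal protein genes have many processed copies, and reads of these can be split. Tpt1, a growth-related protein of nearly all cells, was at 6485 ± 896 CPM per kb in hearts and 6824 ± 249 in cultures, and did not differ beyond its spread (edgeR quasi-likelihood test, adjusted p = 0.565). Rpl3l reached 987 CPM per kb in the hearts, below Rpl8 and Rplp0 at 2382 ± 384 and 2662 ± 321 CPM per kb.

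Most genes kept their leading transcript. Of 2121 genes with more than 1 transcript and at least 10 CPM in each group, 252 had a different leading transcript in heart and culture, and in 2 of these the log2 ratio between both transcripts changed by at least 2. In Ikbip the ratio of the heart-leading to the culture-leading transcript was 1.78 ± 0.73 (SD, n = 4) in hearts and -1.13 ± 0.14 (SD, n = 3) in cultures. In Tor1aip2 it was 1.92 ± 0.88 and -0.13 ± 0.04. In Ank1, an ankyrin gene with short muscle forms, it was 0.62 ± 0.04 and -0.70 ± 0.19, while both transcripts were far higher in the heart. Lrrfip1, Map3k20 and Polr1d followed with changes of 1.26, 0.89 and 0.75. Transcripts of a gene share most of their reads in this table, and such ratios are compressed toward 0.

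The same contrast was made in libraries from other mice and cultures, Rpl3l-/- hearts (n = 4) against C2C12 cells overexpressing RPL3 (n = 3) or RPL3L (n = 3), which add a genotype and an expressed protein. There 1422 genes were large increases (22.3% of 6375) and 878 large decreases (13.8%). Of the 1342 increases in wild-type hearts over control cells 98.4% were also increases there, and of the 956 decreases 86.0% were; conversely 92.8% of the 1422 and 93.6% of the 878 were large in the wild-type comparison. No gene was a large difference in opposite directions. For 34 sarcomere genes, 30 fatty acid genes, 49 mitosis genes and 26 DNA replication genes the call was made in both. Rpl3l itself was the clearest departure, at 99.9 ± 23.2 CPM (SD, n = 4) in Rpl3l-/- hearts, 3707 ± 62.3 CPM (SD, n = 3) in RPL3L cells and 0.739 ± 0.672 CPM (SD, n = 3) in RPL3 cells.

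**Figure D5:**
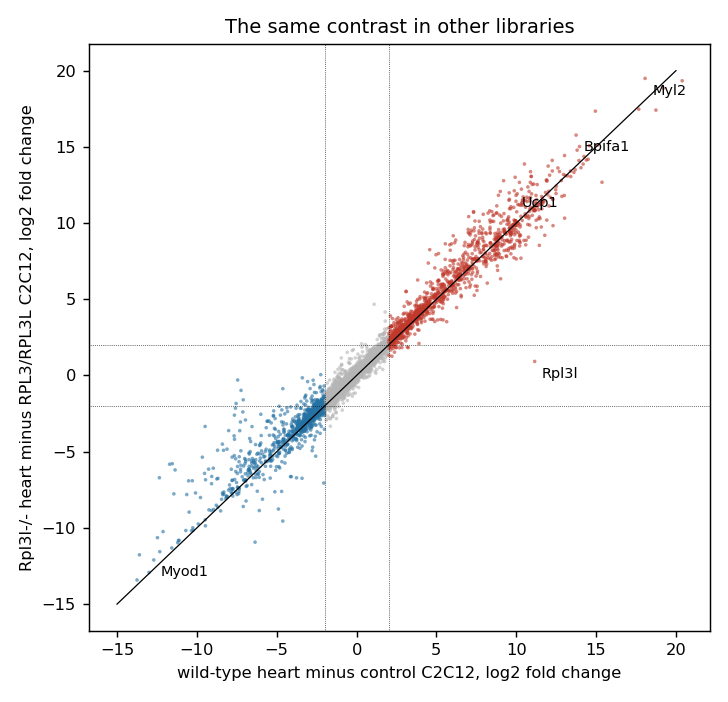
Log2 fold change of each tested gene in wild-type hearts over control C2C12 cells (horizontal axis) and in Rpl3l-/- hearts over C2C12 cells overexpressing RPL3 or RPL3L (vertical axis), with the line of equality and dotted lines at 4-fold. Red and blue points are genes that were large increases and decreases in the wild-type comparison, 1320 and 822 of which were also large there, and Rpl3l lies far below the line.

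Ribosome footprints of the same 2 groups (4 hearts, 3 cultures) gave another readout of the same mRNAs, for 5805 tested genes with a mean footprint count of at least 10. Of 1119 genes with higher mRNA in the heart, 1104 had more footprints there and 944 at least 4-fold more. Of 827 genes with lower mRNA, 813 had fewer footprints and 567 at least 4-fold fewer. Across genes, which are not independent replicates, the log2 ratios correlated with Pearson's r = 0.928 and Spearman's rho = 0.882. The 15 genes with higher mRNA and fewer footprints in the heart included 8 histone genes, and the names of these were seen before they were grouped. Replication-dependent histone mRNAs end in a stem-loop in place of a poly(A) tail, and the RNA libraries were made from poly(A)+ RNA while footprints were selected by size. Hist1h1c, a linker histone, was at 141, 128, 215 and 169 CPM of mRNA in the hearts and 32.6, 28.0 and 32.8 CPM in the cultures, but its footprints were at 747 CPM in the hearts and 3148 CPM in the cultures. Hist2h2aa1 and Hist1h2bg, core histones, had mRNA 42.2-fold and 9.88-fold higher in the heart with log2 footprint ratios of -2.76 and -3.47. Of 27 histone genes with both readouts, 14 had a higher mRNA count in the heart and none had more footprints there, with medians of 0.26 and -4.14 on the log2 scale. Whether the selection of poly(A)+ RNA plays a part was not tested. Among the 14 genes of opposite sign in the other direction, Myh3 had no mRNA count in any heart but 501 footprint CPM in hearts and 16.5 in cultures, and its short footprints can match related myosin genes.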

How the data were processed

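RNA-seq counts per transcript were taken from the count table that the authors deposited, together with ribosome footprint counts for the same 2 groups. The submitters' processing notes name cutadapt, STAR and featureCounts with the builds GRCm38.p6 and mm10, and the study's methods describe them for footprints as trimming, alignment to the transcriptome with multiple mapping allowed, and counting. Each transcript stood on 2 identical lines, of which 1 was used. Transcripts were matched to GENCODE M21 (23662 of 23877), and the one with the highest mean count was kept per gene. Transcripts of a gene share reads.

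Genes with a mean count of at least 10 were tested with edgeR 4.0.16 (R 4.3.3), using TMM scaling, the quasi-likelihood test and Benjamini-Hochberg adjustment. DESeq2 1.42.0, other scalings, filters and transcript choices, and leaving out each library, were alternatives. A group at 0 in every library was set to a floor of 3 counts per library, which gave the bounds. With 10 or fewer counts in the lower group the ratio was given with an exact 95% interval, which covers counting error only. CPM used TMM-scaled library sizes. Levels per kb were CPM divided by transcript length. Footprint ratios used a pseudocount of 0.5 CPM and had no test.

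Named genes were Rpl3l, the 10 largest non-overlapping increases and decreases by fitted fold change with at least 100 CPM in the higher group, up to 5 large differences in each direction and the members against the main direction in each of 26 lists, all large differences among cardiac factors and myogenic regulators, the tested pairs, the 10 highest genes per kb in each group and the 6 largest transcript changes. Other genes named, among them the histone genes, were chosen after their values were seen. A few genes that this rule names are not reported here. The members and lists were chosen with earlier results of these data known. In simulated data for this comparison (6375 genes, 200 changed), edgeR called 100 of 100 genes changed 8-fold as large and 1 of 6175 unchanged genes. With so few genes changed, in random directions, the simulation does not bear on scaling, on which the split of the 2298 large differences depended. The study describes the C2C12 samples of its qPCR, protein and Ribo-seq measurements as biologically independent. The labels of the RNA-seq cultures give replicate numbers only, so p-values measure the spread between these samples.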

Additional observations from a re-analysis of the deposited data

Results flagged for a closer look

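For 14 of 212 values examined, 1 of the 4 hearts stood apart from the other three by more than Dixon's 95% limit, measured as its gap to the nearest heart over the range of the 4. Chance alone gives about 5% of such flags. Heart 1 was the lowest for Dsp (1476 CPM, gap share 0.860) and Ftl1-ps1 (924 CPM, 0.869), and the highest for Pgm1 (893 CPM, 0.931), Meox2 (33.8 CPM, 0.836) and Vdac1 (2368 CPM, 0.831). Heart 2 was the highest for Cnn1 (96.9 CPM, 0.841) and for Scgb3a1, a secreted protein of airway epithelium (92.8 CPM, 0.836). Heart 3 was the highest for Vgll3 (6.35 CPM, 0.898), and heart 4 for Ckm (11521 CPM, 0.867). For Nek2, Pbk, Ticrr, Musk and P4ha3 a single heart held the few counts, so the gap share was 1.000 in each.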

How the results depend on the processing

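The number of large differences lay between 2267 and 2533 with upper-quartile scaling, DESeq2, library totals, equal weights for the transcript choice, all 17 RNA-seq libraries in 1 model, the replicate block (2281, of which 2223 were shared) and hearts 1 and 3 only. Leaving out each library gave 2279 to 2342 in all, 1323 to 1349 higher and 942 to 997 lower. No count filter gave 2993, a mean count of at least 50 gave 1643 and the test against a 4-fold change 1922. All transcripts gave 5445 (3125 higher, 2320 lower), an 8-fold limit 1502 (514 lower). In the other libraries, library totals gave 1436 lower, no filter 2289 higher, and leaving out each library 2246 to 2331 in all, 1407 to 1435 higher and 832 to 916 lower. Replicate numbers did not pair hearts with cultures: the correlations of same-numbered samples were -0.0115, 0.0347 and 0.0214. Of 3502 results for 186 named genes, 3409 kept direction and call, 76 lost it, 14 gained it and 3 changed sign: Hspb1 to -0.26 with library totals, and Tpt1 to 0.053 with a mean count of at least 50 and to 0.0015 without heart 3 (range without each library -0.13 to 0.0015). The causes were not tested. Depth limits genes under about 1.71 CPM in the hearts.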

Other observations

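Sterol synthesis genes, a list chosen after the data were seen, were lower in the heart in 12 of 13 tested members by adjusted p-value (edgeR quasi-likelihood test), beside 42.2% of all tested genes, and 6 were large decreases, beside 15.0%, among them Sqle (log2 fold change -6.44), Lss (-3.34), Idi1 (-3.27) and Srebf2 (-2.87). Sqle encodes squalene epoxidase and Lss lanosterol synthase. The list summed to 471 to 509 CPM in the hearts and 2186 to 2245 CPM in the cultures.

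Cytosolic ribosomal protein genes, chosen in the same way, differed little in size: of 46 tested, 1 was a large increase (Rpl3l) and none a large decrease, with a median log2 fold change of -0.45, while 31 were lower and 6 higher by adjusted p-value, beside 42.2% and 40.5% of all tested genes. Of 22 translation factor genes, Eif5a2 (-4.11) and Eif1a (-2.44) were large decreases, and the median was -0.09.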
